A study of Homo sapiens with 6 samples.

Results

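The immunoglobulin genes expressed by KMM1, a human line established from multiple myeloma, were examined in 6 RNA libraries. Genes were chosen by name and level: the name had to begin with a prefix of heavy, kappa or lambda variable (V) or constant genes, and TPM (transcript abundance per length, relative to the whole library) had to average at least 1 over the 6 libraries. The rule uses the mean over both groups. The prefixes matched 385 of the 57290 genes in the files, and 44 of these passed the threshold. One of the 44, IGHMBP2, encodes a helicase on chromosome 11 that shares only its first letters with the immunoglobulin genes, so 43 immunoglobulin genes remained: 7 heavy, 19 kappa and 17 lambda. Of the other matching genes, 181 were listed at 0 in every library and 160 were above 0 but under the threshold.

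The cells of all 6 libraries had been transduced with lentivirus. In 3 libraries the virus carried TAZ (gene WWTR1, a co-activator of TEAD transcription factors at the end of the Hippo pathway), and in the other 3, called WPI, it was the empty vector. Total RNA was collected 4 days after transduction, and 15 ug per sample with an integrity number above 8 was enriched for polyadenylated RNA. The labels do not say whether the 3 libraries of a group are separate cultures, and the spread on which each p-value rests may therefore be technical. The study set out to see what re-expression of TAZ does to the transcripts of a myeloma line.

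An antibody consists of heavy chains and light chains, and each light chain is either kappa or lambda. A B cell joins a V segment to joining segments in its DNA, and transcription through the joined segment is spliced to a constant exon, so that the V and constant parts of a chain lie on the same mRNA. Plasma cells, the normal counterpart of myeloma cells, make these mRNAs in very large amounts and mostly use the form that encodes a secreted chain. A clone usually keeps a single productive heavy chain and a single productive light chain, although transcripts from other rearranged or unrearranged segments can persist. The kappa locus of chromosome 2 holds a proximal cluster of V segments and an inverted distal copy of it, marked by a D in the segment name, and the lambda locus of chromosome 22 holds a row of near-identical constant genes. Values of such copies are uncertain, because reads that fit more than 1 copy can be divided between them.

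The libraries held 1099.95 to 2033 megabases of aligned sequence, and 73.6% to 75.9% of it lay on annotated transcripts. WWTR1 stood at 2.35, 1.21 and 1.40 scaled TPM (TPM made comparable between libraries by median-of-ratios factors) in WPI libraries 1, 2 and 3 and at 365, 138 and 145 in TAZ libraries 1, 2 and 3. WPI library 3 had the fewest aligned bases and stood apart on the second principal component, at -74.8 against a range from -1.42 to 37.6 in the other 5, so calls are also given without it. The 9 plasma cell markers summed to 1183 to 1965 scaled TPM in WPI and 1102 to 1281 in TAZ libraries. Over all genes tested in limma, 0.964% were called lower and 2.25% higher in TAZ libraries. Of 8 tested plasma cell markers, 3 fell in TAZ libraries and 0 rose in limma (0 higher at an unadjusted p under 0.05). The 3 were SDC1, the syndecan that marks plasma cells, SLAMF7 and IRF4. The call of SLAMF7 was lost without WPI library 1 or 2 or any TAZ library (adjusted p from 0.0745 to 0.124) and without scaling (0.0918), and that of IRF4 as given further on. Of the B cell markers, MS4A1 was at no more than 0.297 scaled TPM and PAX5 at no more than 0.0736 in any library, and the 1 tested, CD79A, at no more than 2.01 (log2 difference 0.02, limma, adjusted p = 0.975).

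Certain kappa genes have to be read together because their V exons are nearly the same. Second coding exons of V segments were taken from transcripts of GENCODE release 29, which matched 31 of the 43 genes by name, while gene positions are those of the files, in the hg19 build. IGKV3D-15, the distal copy of IGKV3-15, differed from it at 3 of 296 aligned bases (99.0% identity), and the related IGKV3-11 differed from it at 18 of 296 (93.9% identity).

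The 3 sequences printed here are V exons of genes that were lower in TAZ libraries and belong to other families. Capitals mark the last codons of the framework before the hypervariable end, which in working V segments read tyrosine, tyrosine, cysteine. IGKV1-37 (chr2:89597021-89597542, minus strand) has TATTACGGT in this place, whose last codon encodes glycine. Its distal copy IGKV1D-37 (chr2:89923550-89924026, plus strand) was identical to it over all 296 aligned bases, so reads from this exon cannot be assigned to either gene. IGLV6-57 (chr22:22550113-22550860, plus strand) was 71.9% to 75.3% identical to the other 3 lambda V segments that could be matched, and IGHV1-69 lies at chr14:107169931-107170428 on the minus strand. The first 300 of 307 and 305 bases are shown for the last pair.
IGKV1-37: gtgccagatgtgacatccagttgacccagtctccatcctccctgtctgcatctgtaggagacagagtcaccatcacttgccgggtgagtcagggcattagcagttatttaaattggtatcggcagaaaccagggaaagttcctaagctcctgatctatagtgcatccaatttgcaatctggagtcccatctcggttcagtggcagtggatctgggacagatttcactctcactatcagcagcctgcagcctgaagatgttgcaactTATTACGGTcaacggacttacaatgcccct
IGLV6-57: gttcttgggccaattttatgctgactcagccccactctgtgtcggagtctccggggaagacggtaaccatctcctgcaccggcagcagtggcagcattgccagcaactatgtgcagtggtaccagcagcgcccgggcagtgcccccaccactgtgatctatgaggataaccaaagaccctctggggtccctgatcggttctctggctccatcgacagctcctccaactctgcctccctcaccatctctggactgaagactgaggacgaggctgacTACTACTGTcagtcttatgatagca
IGHV1-69: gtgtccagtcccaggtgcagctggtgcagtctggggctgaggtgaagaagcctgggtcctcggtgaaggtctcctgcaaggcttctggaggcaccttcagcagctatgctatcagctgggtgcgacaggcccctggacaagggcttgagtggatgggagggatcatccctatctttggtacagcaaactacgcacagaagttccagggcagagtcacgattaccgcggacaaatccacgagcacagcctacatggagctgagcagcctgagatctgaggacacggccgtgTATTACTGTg

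Immunoglobulin transcripts were abundant in the control cells and less abundant after TAZ. The 43 genes together made up 3.69% ± 0.847 of all deposited TPM in WPI libraries and 1.74% ± 0.0807 in TAZ libraries (SD, n = 3). At a Benjamini-Hochberg adjusted p under 0.05 in limma, fitted over the 19390 genes that averaged 1 TPM or more, 7 of the 43 genes fell (16.3%) and 0 rose. Of all tested genes, 3.21% were called, 0.964% as lower and 2.25% as higher (187 and 436 genes; 85 and 533 on TPM that was not scaled between libraries). The 7 were IGKC, IGKV3D-15, IGKV3-11, IGKV1D-37 and IGKV1-37 of the kappa chain, IGLV6-57 of the lambda chain and IGHV1-69 of the heavy chain. They are not 7 separate observations, because IGKV1-37 and IGKV1D-37 share an identical V exon. The V and constant parts of a chain also lie on the same mRNA. At an unadjusted p under 0.05 in the same fit, 14 genes were lower and 0 higher, against 2037 lower and 1446 higher of the 19390 tested.

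The log2 difference, TAZ minus WPI on log2(scaled TPM + 1), was below 0 for 31 of the 43 genes and for 54.8% of all tested genes. Its median was -0.42 over the 43 genes against -0.05 over all tested genes. On unscaled TPM the median over all genes moved to 0.17, that of the 43 genes to -0.22, and 26 of them were below 0. In 13 genes (30.2%) every TAZ library lay below every WPI library, as did 14.8% of all tested genes. In 0 genes did every TAZ library lie above every WPI library, against 10.1% of all tested genes. Both the 43 genes and the tested genes passed the same threshold on the mean, and 5 of the 43 had a mean under 1 TPM in 1 of the groups, none of which was called.

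The called genes were all among the abundant ones. Of the 18 immunoglobulin genes that averaged 20 TPM or more, a level chosen after the values were seen, 18 had a log2 difference below 0, 13 had groups that did not overlap, and 7 were called, with a median of -0.97. Over the 6015 tested genes of that level the median was -0.17, and 3869 were below 0. The groups did not overlap with TAZ lower in 21.0% of the 6015, and 3.49% were called (75 genes lower and 135 higher). Of the 25 genes with a mean under 20 TPM, 0 were called in limma (1 at an unadjusted p under 0.05), and the groups overlapped in all 25. In 13 of the 25 the log2 difference was below 0, as it was in 54.8% of all tested genes. The classes differed: under 20 TPM the median was 0.19 for heavy, -0.15 for kappa and -0.57 for lambda genes. At 20 TPM or more the medians were -1.19, -1.27 and -0.63 in the same order. Of the 7 lambda genes under 20 TPM, 6 were below 0. The number of members called lower was between 1 and 6 when any 1 library was left out, lowest without TAZ library 2 and highest without WPI library 3.

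**Figure D1:**
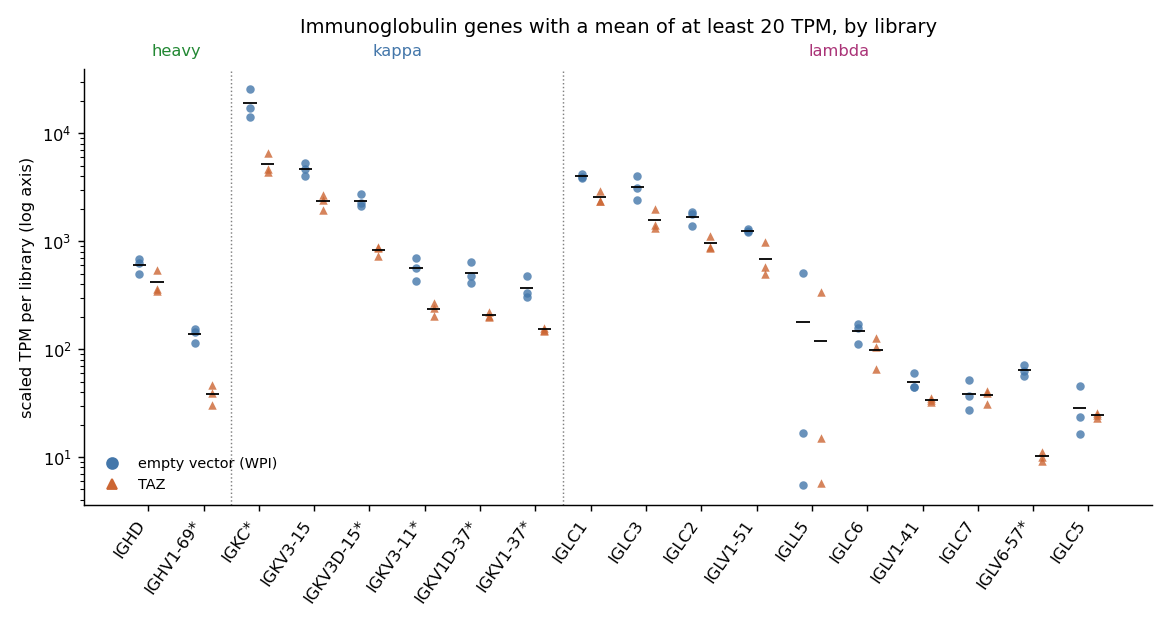
Scaled TPM of the 18 immunoglobulin genes that averaged 20 TPM or more in each library (log axis), by chain class and in order of mean TPM, with a black bar at the mean of each group of 3 libraries and an asterisk at the 7 genes called lower. All 6 kappa genes have TAZ libraries below all WPI libraries, while IGHD, IGLC5, IGLC6, IGLC7 and IGLL5 overlap.

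IGKC (chr2:89156674-89157196, minus strand, 1 exon), which encodes the constant domain of every kappa chain, was the most abundant immunoglobulin gene. It stood at 25784, 17253 and 14333 scaled TPM in WPI libraries 1, 2 and 3 and at 6564, 4369 and 4717 in TAZ libraries 1, 2 and 3. The lowest WPI library was thus above the highest TAZ library, and the WPI libraries differed among themselves by 1.80-fold. The mean fell from 19123 ± 5950 to 5217 ± 1180 (SD, n = 3), a log2 difference of -1.85 ± 0.29 (SE, limma, adjusted p = 0.0240). The call was lost without WPI library 1 (adjusted p = 0.0521), WPI library 2 (0.0958), TAZ library 2 (0.130) or TAZ library 3 (0.113), with log2 differences from -1.61 to -1.90.

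IGKV3-15 and its copy IGKV3D-15 held 82.3% ± 1.02 of kappa V TPM in WPI libraries and 82.7% ± 2.303 in TAZ libraries (SD, n = 3). IGKV3-15 was at 4050, 4713 and 5339 scaled TPM in WPI libraries 1 to 3 and at 1934, 2400 and 2683 in TAZ libraries 1 to 3. No TAZ library reached the lowest WPI library, but the log2 difference of -1.01 ± 0.21 missed the threshold (limma, adjusted p = 0.0665). IGKV3D-15 was at 2754, 2244 and 2131 in WPI libraries and at 862, 733 and 877 in TAZ libraries. It fell by 1.52 ± 0.19 on the log2 scale (adjusted p = 0.00901), a call that was lost without WPI library 2 (0.0507) or TAZ library 2 (0.0664).

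Because reads can move between these copies, their TPM was also summed and fitted as 1 feature, an alternative chosen after the values were seen. The sum was 6805, 6957 and 7470 scaled TPM in WPI libraries and 2796, 3133 and 3560 in TAZ libraries. It fell by 1.17 ± 0.18 on the log2 scale (limma, adjusted p = 0.0234). IGKV3D-15 took 33.8% ± 6.12 of the sum in WPI and 26.3% ± 3.98 in TAZ libraries, and these shares overlapped. The first exon of IGKV3D-15, which holds the leader, was listed at 0 in WPI library 3 and TAZ libraries 1 and 2, whereas the first exon of IGKV3-15 had depth in all 6.

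The other 3 kappa V segments called lower were less abundant than this pair. IGKV3-11 stood at 424, 570 and 697 scaled TPM in WPI libraries and 269, 239 and 201 in TAZ libraries, and it fell by 1.23 ± 0.24 on the log2 scale (limma, adjusted p = 0.0492). Its leader exon was listed at 0 in every library, so its TPM rested on the exon that resembles IGKV3-15. Summed with its distal copy IGKV3D-11, which matches it at 293 of 296 aligned bases, IGKV3-11 differed by -1.21 ± 0.24 on the log2 scale and missed the threshold (adjusted p = 0.0520). IGKV1D-37 stood at 649, 477 and 407 in WPI libraries and 219, 198 and 202 in TAZ libraries, and IGKV1-37 at 474, 333 and 306 against 158, 148 and 150. As IGKV1-37 and IGKV1D-37 are identical over the V exon, they are 1 observation: their sum fell by 1.27 ± 0.22 on the log2 scale (limma, adjusted p = 0.0313). The calls of these 3 genes were lost without any of WPI library 2 and TAZ libraries 1, 2 and 3, with adjusted p from 0.0639 to 0.198. IGKV3-11 also lost its call without WPI library 3 (0.0693) and IGKV1D-37 without WPI library 1 (0.0554). On unscaled TPM the calls of IGKV1D-37 (0.0817) and IGKV1-37 (0.0870) were lost, and with upper-quartile scaling that of IGKV3-11 (0.0580).

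Lambda constant genes, apart from those annotated as pseudogenes, encode interchangeable constant domains of lambda chains. Of the 7 that passed the threshold on abundance, 0 were called in limma (3 lower at an unadjusted p under 0.05), where 3.21% of all tested genes were called. IGLC1 (chr22:23237555-23238014, plus strand) was at 3982, 4202 and 3833 scaled TPM in WPI libraries and at 2924, 2343 and 2379 in TAZ libraries. IGLC2 was at 1860, 1778 and 1389 in WPI and 1108, 874 and 883 in TAZ libraries. IGLC3 was at 3993, 3123 and 2425 in WPI and 2002, 1406 and 1334 in TAZ libraries. In each of these 3 genes all TAZ libraries lay below all WPI libraries, with log2 differences of -0.66 ± 0.18, -0.81 ± 0.21 and -1.003 ± 0.27 and adjusted p of 0.135, 0.110 and 0.124 in limma.

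IGLC2 and IGLC3 were identical at 314 of 317 aligned coding bases (99.1%), and IGLC1 matched IGLC2 at 95.3% and IGLC3 at 95.0%, so the split between them is less certain than their sum. IGLC1, IGLC2 and IGLC3 took 44.4%, 18.4% and 34.7% of lambda constant TPM in WPI libraries and 48.7%, 18.2% and 29.9% in TAZ libraries, and each share overlapped between groups. The constant genes summed with IGLL5 differed by -0.79 ± 0.21 on the log2 scale (limma, adjusted p = 0.118). IGLC6 differed by -0.60 (adjusted p = 0.347), IGLC5 by -0.10 (0.905), IGLC4 by -0.18 (0.805) and IGLC7 by -0.01 (0.990), all with overlapping groups. IGLC4, IGLC5 and IGLC6 are annotated as pseudogenes.

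IGLV1-51 (chr22:22676828-22677336, plus strand) held 90.6% ± 0.530 of lambda V TPM in WPI libraries and 92.3% ± 2.68 in TAZ libraries (SD, n = 3). It stood at 1304, 1215 and 1233 scaled TPM in WPI libraries and at 988, 576 and 497 in TAZ libraries, so TAZ library 1 lay nearer to the WPI libraries than to the other TAZ libraries. The log2 difference was -0.93 ± 0.28 (limma, adjusted p = 0.168), and without TAZ library 1 it was -1.23 (adjusted p = 0.0276). IGLV6-57, at a far lower level, had the lowest adjusted p of the 43 genes. It was at 62.2, 71.3 and 56.9 scaled TPM in WPI libraries and at 11.2, 9.20 and 10.04 in TAZ libraries, and fell by 2.53 ± 0.17 on the log2 scale (limma, adjusted p = 0.000835). Its call held under all 15 alternatives run, with adjusted p up to 0.0266.

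The IGLV6-57 signal was not spread evenly over the gene. Its second exon is 491 bases long in the files, against 307 coding bases in the GENCODE transcript, and had a mean depth of 68.2, 89.0 and 39.1 in WPI libraries and 11.6, 7.40 and 9.23 in TAZ libraries. Its leader exon had a depth of 4.38 and 9.54 in WPI libraries 1 and 2 and was listed at 0 in the other 4. IGLV1-41, an annotated pseudogene named here after its values were seen, was the remaining lambda V segment whose groups did not overlap, with a log2 difference of -0.53 (limma, adjusted p = 0.202).

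IGLL5 encodes a lambda-like chain, and its last exon starts at the same base as IGLC1. It was at 5.48, 508 and 16.8 scaled TPM in WPI libraries and at 5.76, 15.0 and 337 in TAZ libraries. WPI library 2 and TAZ library 3 were high and the other 4 low, and the log2 difference of -0.23 had an SE of 2.00 (limma, adjusted p = 0.965). The signal of the high libraries lay on exon 1, which had a mean depth of 1412 in WPI library 2 and 666 in TAZ library 3 and at most 16.8 in the others. IGLL1, the lambda-like part of the surrogate light chain of early B cells, was at no more than 4.54 scaled TPM in any library.

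IGHV1-69 was the only heavy V segment to pass the threshold on abundance. It was at 155, 145 and 115 scaled TPM in WPI libraries and at 46.3, 39.6 and 30.2 in TAZ libraries, and the highest TAZ library lay below all WPI libraries. It fell by 1.82 ± 0.22 on the log2 scale (limma, adjusted p = 0.00793), and the call was lost without TAZ library 2 (0.0529). IGHD (chr14:106303099-106312010, minus strand), the constant gene of IgD, held 98.1% ± 0.515 of heavy constant TPM in WPI libraries and 96.8% ± 0.459 in TAZ libraries (SD, n = 3). It was at 499.98, 635 and 689 scaled TPM in WPI libraries and at 545, 364 and 348 in TAZ libraries. TAZ library 1 lay within the WPI range, and the log2 difference was -0.55 ± 0.24 (limma, adjusted p = 0.298).

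The other 5 heavy constant genes that passed the threshold were at low levels. Among the 6, 0 were called in limma (0 at an unadjusted p under 0.05), where 3.21% of all tested genes were called. IGHE, of IgE, differed by 0.19, IGHA2 by 0.02 and IGHA1, both of IgA, by 0.37, IGHG4, of IgG, by 0.14 and the pseudogene IGHEP1 by 0.19 on the log2 scale, with adjusted p from 0.645 to 0.978. IGHM, the constant gene of IgM that precedes IGHD in the locus, averaged 0.0286 TPM and was listed at 0 in 3 libraries. IGHG1, IGHG2 and IGHG3 averaged 0.0695, 0.235 and 0.00831 TPM. IGHA1 at 1.07 TPM and IGHG4 at 1.01 TPM lay just inside the threshold of the rule, and IGKV1OR2-108 at 0.921 and IGHV7-27 at 0.850 TPM just outside it. IGHMBP2 differed by 0.09 (limma, adjusted p = 0.850).

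**Figure D2:**
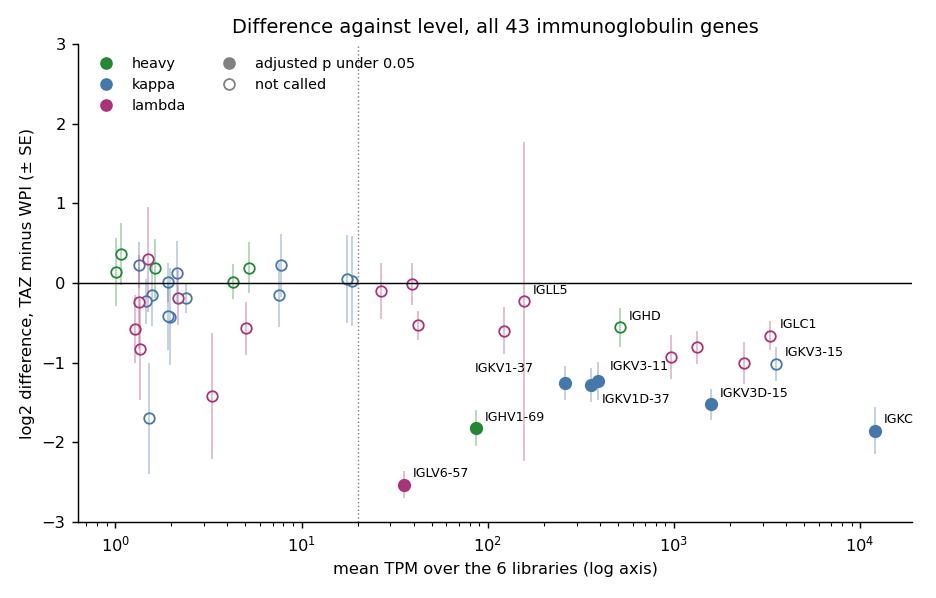
Log2 difference, TAZ minus WPI, with its SE for each of the 43 immunoglobulin genes against its mean TPM over the 6 libraries (log axis), by chain class, with filled points at adjusted p under 0.05 and a dotted line at 20 TPM. The 7 filled points all lie right of the line, between -1.23 and -2.53, and the points left of it lie on both sides of 0.

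The last exons of IGHD, M1 and M2, encode the membrane anchor, and they are the 3′ end of the only IGHD transcript in the annotation the files use, 2767 bases beyond the CH3 domain exon. They held 37.8%, 38.3% and 38.2% of the bases on IGHD exons in WPI libraries 1, 2 and 3 and 38.5%, 39.3% and 38.8% in TAZ libraries 1, 2 and 3. The TAZ values were all above the WPI values, by 0.761 percentage points in the mean (two-sided exact permutation p = 0.1, the smallest that 3 against 3 libraries can give). The mean depth of M1 and M2 relative to CH1, CH2 and CH3 was 109.6% ± 2.53 in WPI and 111.4% ± 2.52 in TAZ libraries (SD, n = 3), with overlapping values (exact permutation p = 0.5). The hinge exon H1 had a depth of 109 and 258 in WPI libraries 1 and 2 and was listed at 0 in the other 4, while H2 had between 65.4 and 93.4 in all 6. The total of IGHD bases includes H1, so its depth in WPI libraries 1 and 2 lowers their membrane share. The separation of the groups in that share was not tested without H1. The depth ratio to CH1, CH2 and CH3 leaves H1 out, and its values overlapped. IGHE was under the depth at which the membrane share was computed. The exons of its shorter annotated transcripts were listed at 0. Most of these exons overlap the last exon of its longest transcript, which had a depth from 1.24 to 5.13, so the 0 does not show that reads were absent.

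**Figure D3:**
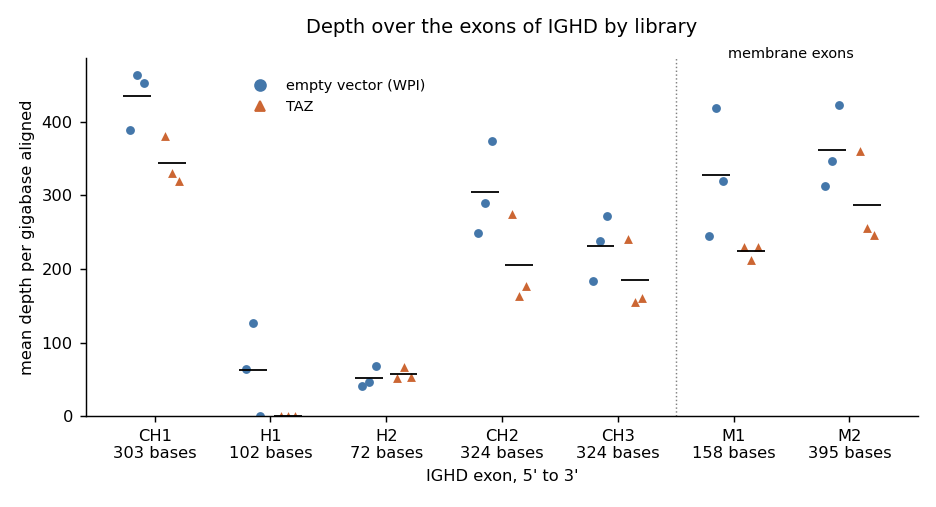
Mean read depth over each exon of IGHD per gigabase of aligned sequence, by library, in the order of the transcript, with a black bar at the mean of each group of 3 libraries and a dotted line before the membrane exons. Both groups have depth over CH1, CH2, CH3, M1 and M2, and H1 is at 0 in 4 of the 6 libraries.

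The 19 kappa genes summed to 34168, 25652 and 23332 scaled TPM in WPI libraries and 10047, 8148 and 8911 in TAZ libraries. The 17 lambda genes summed to 11430, 11176 and 9300 in WPI libraries and 7263, 5443 and 5617 in TAZ libraries. The 7 heavy genes summed to 664, 790 and 822 in WPI libraries and 611, 417 and 387 in TAZ libraries. In every class the TAZ libraries lay below the WPI libraries. The ratio of the means, TAZ over WPI, was 0.326 for kappa, 0.574 for lambda and 0.622 for heavy genes. No test was run on these sums, since the genes in them were chosen with results known, and no test of the difference between classes was run. The order of the classes depended on the part summed. Over V segments alone the ratio was 0.444 for kappa, 0.536 for lambda and 0.280 for heavy genes. Over constant regions alone it was 0.273, 0.578 and 0.698 in the same order, and the heavy constant sums overlapped between groups. Fewer cells with high immunoglobulin expression and less immunoglobulin mRNA per cell cannot be told apart in RNA from whole cultures.

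Kappa genes made up 74.9%, 69.7% and 71.5% of light chain TPM in WPI libraries 1, 2 and 3 and 58.0%, 59.95% and 61.3% in TAZ libraries 1, 2 and 3. The groups did not overlap, and the means were 72.0% ± 2.68 and 59.8% ± 1.66 (SD, n = 3). The constant regions alone gave 67.1% ± 4.28 and 49.7% ± 1.86, also without overlap. The V segments alone gave 86.2% ± 0.707 and 83.7% ± 5.92, with overlap. Counted in aligned bases in place of TPM, the kappa share was 73.0% ± 3.55 in WPI and 60.3% ± 0.706 in TAZ libraries.

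**Figure D4:**
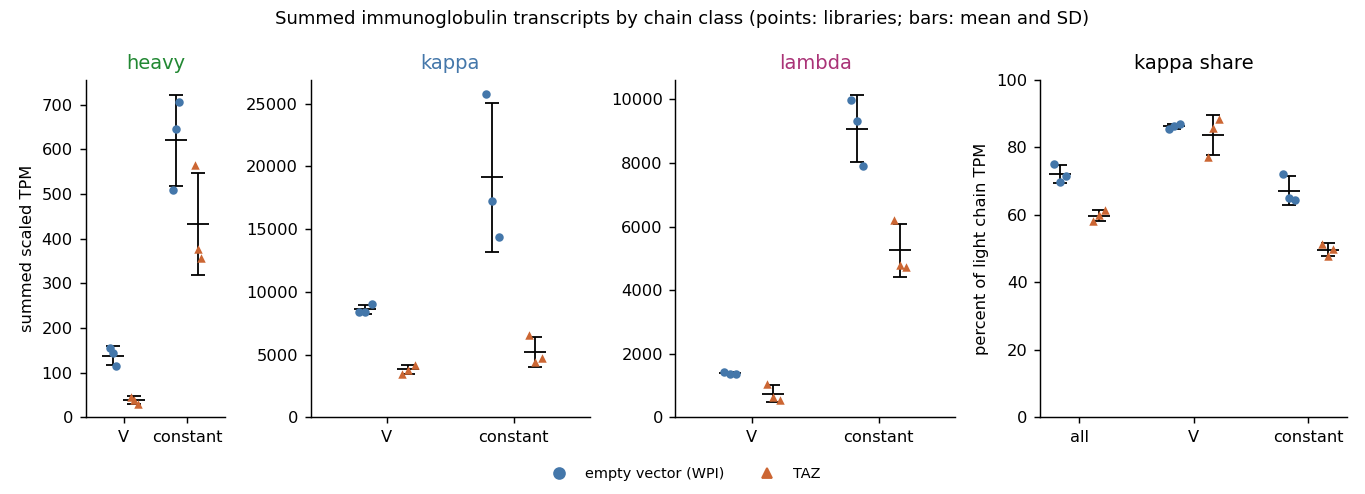
Summed scaled TPM of V segments and constant regions of the heavy, kappa and lambda genes (3 left panels, each with its own axis from 0) and the kappa share of light chain TPM in percent (right panel), with a point per library and the mean and SD of each group of 3. TAZ libraries lie below WPI libraries in every sum but the heavy constant regions, and the kappa share overlaps between groups for the V segments alone.

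Genes that act with the immunoglobulin genes were taken from lists of known partners. Their counts stand beside 0.964% of all tested genes called lower and 2.25% called higher in limma. Of 12 tested joining segments, which lie between the V segment and the constant exon, 1 fell and 0 rose (0 higher and 5 lower at an unadjusted p under 0.05 in limma). The one that fell was IGHJ6, at 134, 115 and 98.9 scaled TPM in WPI libraries and 58.8, 57.8 and 42.1 in TAZ libraries (log2 difference -1.12 ± 0.21, limma, adjusted p = 0.0422). The call of IGHJ6 was lost without WPI library 1 or 2 or any TAZ library (adjusted p from 0.0690 to 0.159) and without scaling (0.111). Of 6 tested chain partners, 0 were called in limma (2 higher at an unadjusted p under 0.05). IGJ, the joining chain of polymeric IgA and IgM, was at 1166, 1224 and 1050 scaled TPM in WPI libraries and at 1698, 2132 and 1691 in TAZ libraries, above them in all 3 (adjusted p = 0.131). Of 5 tested genes of recombination and somatic diversification, 0 were called in limma (0 at an unadjusted p under 0.05).

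Of 22 tested factors of immunoglobulin gene transcription, 1 fell and 3 rose in limma (4 higher and 3 lower at an unadjusted p under 0.05). Of all tested genes, 0.964% were called lower and 2.25% higher. IRF4, a factor that binds light chain enhancers and on which plasma cells depend, was at 527, 454 and 348 scaled TPM in WPI libraries and 193, 222 and 185 in TAZ libraries. It fell by 1.13 ± 0.21 on the log2 scale (limma, adjusted p = 0.0421), and the call was lost without WPI library 1 or 2 or any TAZ library (0.0854 to 0.174) or without scaling (0.1502). ID1 and ID3 encode inhibitors of the E proteins that bind immunoglobulin enhancers. ID1 rose from 6.98 ± 1.69 to 42.9 ± 9.69 (SD, n = 3; log2 difference 2.46 ± 0.24, adjusted p = 0.00353). ID3 rose from 35.7 ± 11.3 to 150 ± 46.1 (2.04 ± 0.32, adjusted p = 0.0240, and from 0.0513 to 0.103 without any single library other than WPI library 2). BACH2, a repressor of the plasma cell programme, rose from 5.33 ± 0.412 to 12.1 ± 1.78 (1.04 ± 0.17, adjusted p = 0.0278, and from 0.0594 to 0.152 without any single library other than WPI library 3).

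Of 8 tested genes that bear on the choice between the secreted and the membrane end of heavy chain mRNA, 1 fell and 0 rose in limma (0 higher at an unadjusted p under 0.05). Over all tested genes, 0.964% were called lower and 2.25% higher. ELL2, an elongation factor that favours the secreted end in plasma cells, was at 107, 102 and 107 scaled TPM in WPI libraries and 38.3, 46.0 and 43.4 in TAZ libraries. It fell by 1.29 ± 0.15 on the log2 scale (limma, adjusted p = 0.00686, and 0.05002 without scaling). The only annotated IGHD transcript ends in the membrane exons, so the IGHD values given above hold no measure of the secreted end. A link between them and ELL2 was not tested.

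Markers of other cell types also differed between the groups. Their counts stand beside 0.964% of all tested genes called lower and 2.25% called higher in limma. The 5 epithelial markers summed to 194 to 322 scaled TPM in WPI and 957 to 2293 in TAZ libraries, and 2 of 4 tested rose, KRT8 and KRT18, with KRT19 at no more than 0.113 (2 higher and 1 lower at an unadjusted p under 0.05 in limma). The call of KRT8 was lost without WPI library 1 (adjusted p = 0.0545) or WPI library 2 (0.0641). CDH1 was at 52.2, 57.0 and 36.9 in WPI and 17.1, 28.4 and 30.1 in TAZ libraries, lower in all 3 (log2 difference -0.94, adjusted p = 0.161), and EPCAM differed by 0.04 (adjusted p = 0.972). The 7 fibroblast markers summed to 2.29 to 3.01 in WPI and 37.9 to 44.9 in TAZ libraries, and 2 of 3 tested rose, LUM and DCN, while the collagen gene COL1A1 differed by -0.03 (limma, adjusted p = 0.949; 2 higher and 0 lower at an unadjusted p under 0.05). The 6 myeloid markers summed to 5.09 to 5.87 in WPI and 1.98 to 2.06 in TAZ libraries, and the 1 tested, CD14, fell (limma, adjusted p = 0.0435), a call lost without any 1 of the 6 libraries (0.0598 to 0.184), without scaling (0.0886) or with upper-quartile scaling (0.0503). The 7 T cell markers summed to 3.68 to 4.97 in WPI and 5.94 to 7.88 in TAZ libraries, with 0 of 2 called in limma (2 higher at an unadjusted p under 0.05). The part of these markers, and of the lower plasma cell markers, in the immunoglobulin differences was not tested.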

How the data were processed

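Values are from 1 file per library deposited by the authors. The submitters' processing notes name STAR 2.3.0, Bowtie2 2.0.0, StringTie 1.3.3b and the hg19 build, and StringTie wrote the values, per the file headers; neither the annotation release nor the use of strand is known from these sources. The deposited units are coverage (mean depth per base), FPKM and TPM per transcript; no read counts were used. TPM was summed per gene and scaled by median of ratios over 28148 genes above 0 in every library. For the 19390 genes averaging 1 TPM or more, log2(scaled TPM + 1) was fitted by limma 3.58.1 (R 4.3.3; eBayes with trend and robust), with Benjamini-Hochberg adjustment over all of them. Differences on this scale understate the change of genes with low values. The median SE was 0.24 on the log2 scale. Aligned bases per library came from the ratio of coverage to FPKM. Sequences were aligned with Biopython 1.88, and some of them and a marker gene are not reported here.

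The immunoglobulin genes and lists were chosen with earlier results of these data known. Named were genes called, the 5 most abundant of each class, constant regions, 2 genes on either side of the threshold, IGHMBP2 and called list genes. Alternatives covered scaling, pseudocount, filter, model, replicate block and left-out libraries. Libraries were sequenced 2 to a chip; without a record of which ones, chip and group cannot be told apart.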

Additional observations from a re-analysis of the deposited data

How the results depend on the processing

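The number of tested genes called, 623, was 352 with no filter on low values, 236 with a replicate block and 270 to 765 with 1 library left out. The number of immunoglobulin genes called lower, 7, was 3 with no filter (of 203 genes then tested), 2 with a replicate block and 1 to 6 with 1 library left out. Replicate numbers are shared between the groups, but deviations of same-numbered libraries correlated at 0.0040, -0.024 and -0.055, so the numbers were not taken as pairs and a call lost with the replicate block is not read as a weaker effect. IGLV6-57 (adjusted p = 0.0266) and IGHV1-69 (0.0354) kept their calls with it. The log2 ratio of summed heavy genes, -0.69, became -1.51 without IGHD and -1.84 over V segments alone. That of kappa genes, -1.62, became -1.37 without scaling, -1.17 without IGKC, which leaves the V segments alone, and -1.87 over constant regions alone. That of lambda genes, -0.80, became -0.56 without scaling. The IGHD membrane difference was 1.85 percentage points as a depth ratio. The cause of these shifts was not tested beyond the members each sum holds.

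Of 24 immunoglobulin or prefix-matched genes named by rule, 9 changed sign under at least 1 alternative, and none of these was called in any. IGLL5 was at 0.025, IGLC7 at 0.25 and IGLC5 at 0.15 without scaling, and IGLC7 at 0.050 with upper-quartile scaling. With 1 library left out, IGLL5 ran from -1.91 to 1.63, IGLC7 from -0.22 to 0.22, IGLC5 from -0.42 to 0.29, IGHA2 from -0.098 to 0.18, IGHG4 from -0.14 to 0.59, IGHEP1 from -0.12 to 0.51, IGHE from -0.075 to 0.44, IGLC4 from -0.51 to 0.10 and IGHMBP2 from -0.057 to 0.22. Without the filter IGKC (adjusted p = 0.0709), IGKV3-11 (0.140), IGKV1D-37 (0.0954) and IGKV1-37 (0.0940) lost their calls, as more genes were tested. Of the 25 genes under 20 TPM, 0 were called, and the part of depth in this was not tested.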

Other observations

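The 13 kappa V segments with a mean under 20 TPM shared a high value: all 13 were highest, among WPI libraries, in WPI library 3, the library with the fewest aligned bases, and 9 were lowest in WPI library 1. IGKV3OR2-268, an orphon on chromosome 2 outside the kappa locus that is 95.3% identical to IGKV3-15 over the V exon, was named after its values were seen. It stood at 6.44, 18.3 and 33.3 scaled TPM in WPI libraries 1, 2 and 3 and at 10.9, 17.1 and 23.2 in TAZ libraries. Of the 6 abundant kappa genes, IGKV3-15 and IGKV3-11 were also highest in WPI library 3, while IGKC, IGKV3D-15, IGKV1-37 and IGKV1D-37 were highest in WPI library 1 and lowest of the WPI libraries in library 3. Among joining segments, IGKJ5 was at 250, 535 and 673 scaled TPM in WPI libraries and 306, 256 and 345 in TAZ libraries.

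XBP1, a plasma cell factor of the secretory pathway, was at 908, 157 and 1051 scaled TPM in WPI libraries, with WPI library 2 far below the others, and at 841, 619 and 736 in TAZ libraries. TNFRSF17, the receptor BCMA, was at 14.8, 73.7 and 58.5 in WPI libraries and 22.1, 26.5 and 25.2 in TAZ libraries.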
